A study of Mus musculus with 2 samples.

Results

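The genes described here are 10 mouse genes of the MHC class I peptide loading pathway: B2m, H2-K1, H2-D1, H2-T23, Tap1, Tap2, Tapbp, Tapbpl, Erap1 and Nlrc5. They were taken as a fixed list and matched by RefSeq accession to the probes of the array, and all 10 were found among 20433 genes with a symbol, on 12 probes. The members were chosen by their signals on these same arrays, the difference between the HES1 and the GFP line, so the differences below describe these genes and test nothing. The study set side by side 2 stable lines of ATDC5, a mouse chondrocyte cell line, both transduced with lentivirus. The control line carries the label GFP, a fluorescent protein, and the other the label HES1, a repressor of transcription induced by Notch signalling. Both lines had been kept for 3 days in monolayer before RNA was taken. The promoter that drove the inserts, and whether a line was 1 clone or a pool, are not given in the sources used here. Each line supplied RNA for 1 Agilent array read in 1 colour, so no difference has a replicate check, and none has a p-value.

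MHC class I molecules show cells' own peptides to CD8 T cells. Proteasomes cut proteins into peptides, the TAP transporter carries them into the endoplasmic reticulum, and the aminopeptidase ERAP1 trims them there. Tapasin holds the heavy chain and its light chain, beta-2 microglobulin, next to TAP until a peptide is bound, and TAPBPR, encoded by Tapbpl, edits peptides outside that complex. Interferons are textbook inducers of the whole pathway, partly through the transactivator NLRC5, which acts at class I promoters. Those promoters carry an enhancer with a kappaB site and an interferon element, followed by a module of X and Y boxes at which RFX, CREB family and NF-Y factors bind.

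Promoter sequences are shown first, since the values below concern genes held to share these elements. RefSeq promoter windows of the GRCm38.p6 build were found for 7 of the 10 genes (B2m, H2-K1, H2-D1, H2-T23, Tap1, Tapbp and Erap1), and the 250 bases before the annotated start were searched on both strands. Where RefSeq lists several starts, the one farthest downstream was used. The classical heavy chain genes are shown as a stretch of 115 bases around the interferon element, beside H2-Q4 and H2-Q7, heavy chain genes that behaved differently from each other on the arrays. Capitals mark, in order, the kappaB match, the interferon element (TTTCACTT), the CRE core site (TGACG) where present, and the CCAAT box, here on the opposite strand. H2-K1 lies on the minus strand (chr17:34000358-34000472). H2-D1 (chr17:35262909-35263023), H2-Q4 (chr17:35379429-35379543) and H2-Q7 (chr17:35439007-35439121) lie on the plus strand.
H2-K1: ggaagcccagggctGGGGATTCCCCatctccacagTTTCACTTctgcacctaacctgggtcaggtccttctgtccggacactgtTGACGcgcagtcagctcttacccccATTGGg
H2-D1: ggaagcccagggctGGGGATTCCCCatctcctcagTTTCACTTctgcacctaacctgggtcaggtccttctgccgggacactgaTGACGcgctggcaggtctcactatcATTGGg
H2-Q4: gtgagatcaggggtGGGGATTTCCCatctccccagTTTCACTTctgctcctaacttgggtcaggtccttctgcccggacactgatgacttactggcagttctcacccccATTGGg
H2-Q7: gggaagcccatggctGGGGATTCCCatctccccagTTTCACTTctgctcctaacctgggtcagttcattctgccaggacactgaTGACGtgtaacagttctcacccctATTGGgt

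Compared base by base without gaps, the H2-D1 stretch was identical to that of H2-K1 at 104 of 115 positions (90.4%), and the H2-Q4 stretch at 97 of 115 (84.3%). All 4 stretches held the kappaB match, the interferon element and the CCAAT box. TGACG stood between the interferon element and that CCAAT box in H2-K1, H2-D1 and H2-Q7. In H2-Q4 the only TGACG match lay beyond the shown stretch, 73 bases before the start. H2-Q6, H2-Q2 and H2-Q10 had no TGACG match in the searched window. Their signals were 16.5-fold, 15.8-fold and 16.1-fold higher on the array labelled HES1. H2-Q7, which held the match, was 15.2-fold higher. Of these, H2-Q6 also held the interferon element, a kappaB match and a CCAAT box. Whether TGACG bears on the array signals was not tested.

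The light chain gene, the H2-T23 gene and the Tap1 gene have upstream regions of another make-up. B2m (chr2:122147437-122147686, plus strand) is shown over 250 bases, with capitals on an interferon-stimulated response element (ISRE, read as GAAA, any 2 bases and GAAA), a kappaB match, TGACG and a CCAAT box. H2-T23 (chr17:36032702-36032951, minus strand) is shown over 250 bases, with capitals on an ISRE on the opposite strand and a CCAAT box. Tap1 shares its upstream region with Psmb9, an immunoproteasome gene that runs the other way, and the 225 bases between the annotated starts of both are shown (chr17:34187331-34187555, strand of Tap1). Capitals there mark a CCAAT box and TGACG.
B2m: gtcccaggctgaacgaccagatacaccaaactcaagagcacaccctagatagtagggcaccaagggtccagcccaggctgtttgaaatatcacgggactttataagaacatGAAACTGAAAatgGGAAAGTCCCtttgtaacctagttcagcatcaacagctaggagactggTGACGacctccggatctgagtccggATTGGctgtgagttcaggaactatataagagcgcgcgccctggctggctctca
H2-T23: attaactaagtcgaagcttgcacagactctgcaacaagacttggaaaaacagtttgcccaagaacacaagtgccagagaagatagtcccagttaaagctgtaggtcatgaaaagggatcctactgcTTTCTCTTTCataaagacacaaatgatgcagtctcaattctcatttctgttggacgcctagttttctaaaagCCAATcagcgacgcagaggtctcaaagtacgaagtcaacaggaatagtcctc
Tap1 and Psmb9: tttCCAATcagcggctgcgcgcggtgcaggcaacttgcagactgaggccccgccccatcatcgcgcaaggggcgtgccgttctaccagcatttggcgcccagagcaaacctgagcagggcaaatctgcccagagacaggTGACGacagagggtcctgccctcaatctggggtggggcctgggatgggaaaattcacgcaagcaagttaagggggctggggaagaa

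Across the 7 genes, the CCAAT box was present upstream of 6, against 33.8% of all 32851 RefSeq promoter windows. TGACG was present in 4 of 7 (17.8% of all windows), kappaB in 3 of 7 (7.25%) and the ISRE in 2 of 7 (2.98%). TTTCACTT, which was added to the search after these letters had been read, was in 2 of 7 (1.36%). The GAS element (TTCNNNGAA) matched in 0 of 7 (7.02%). Of the letters that HES proteins are known to bind, the N box (CACNAG) was found in 5 of 7 (36.7%) and the class C site (CACGNG) in 2 of 7 (23.5%), and both patterns match the same CACGAG in Erap1. The kappaB pattern reads nearly the same on both strands, so some of its matches are the same bases. A match is a description of the letters in this window and not a bound site.

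**Figure D1:**
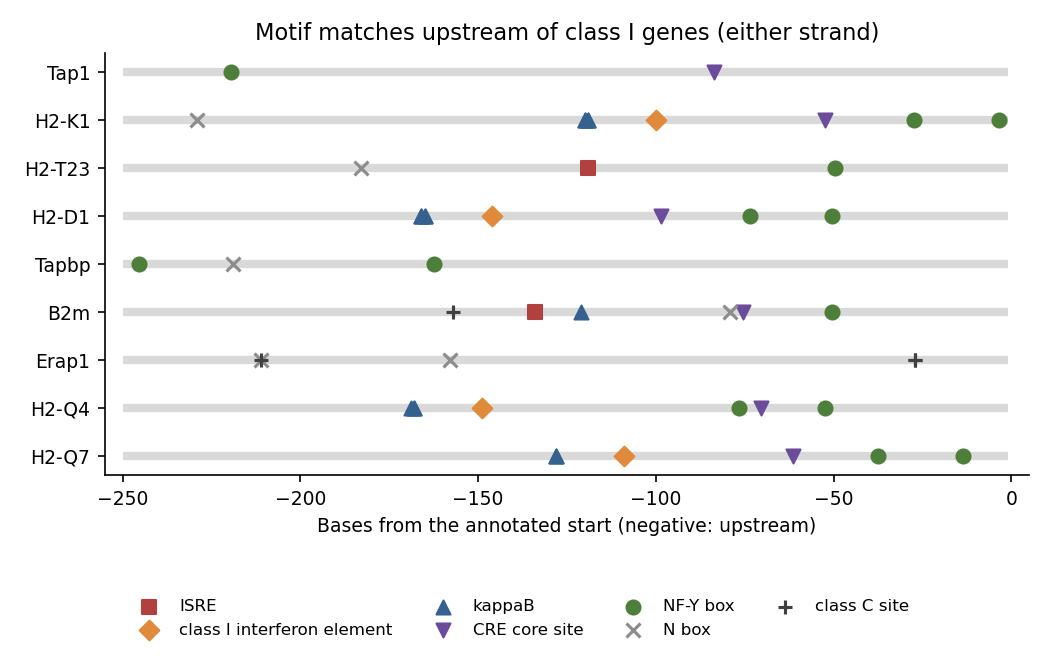
Motif matches in the 250 bases before the annotated start of the 7 class I loading genes with a RefSeq window, and of H2-Q4 and H2-Q7. The x axis gives bases from the start and each symbol is a match on either strand, with CCAAT drawn as the NF-Y box; the interferon element falls between kappaB and the CRE core site in H2-K1, H2-D1, H2-Q4 and H2-Q7, and an ISRE appears only in B2m and H2-T23 among the genes drawn.

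All 10 genes gave a higher signal on the array labelled HES1 than on the array labelled GFP. By its brightest probe and at the 75th percentile scaling each passed 4-fold, while 5 passed 8-fold and 3 passed 16-fold. The median log2 difference of the 10 was 2.97, and the median over all 14273 genes above background on at least 1 array was -0.06. Of those genes 11.1% were higher by 2-fold or more and 4.95% were lower by as much. Among the 13073 genes seen on both arrays, 7.04% were higher by 2-fold or more, 2.70% by 4-fold or more, and 4.41% were lower by 2-fold or more. Since the 10 genes were listed with this contrast in view, nothing is read from their share against these percentages. Signals are in scanner units after both arrays were given the same 75th percentile, 1057.2. They compare a gene between arrays and not one gene with another, because probes differ in brightness. In RNA from whole cultures, more cells with a transcript and more transcript per cell cannot be told apart.

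**Figure D2:**
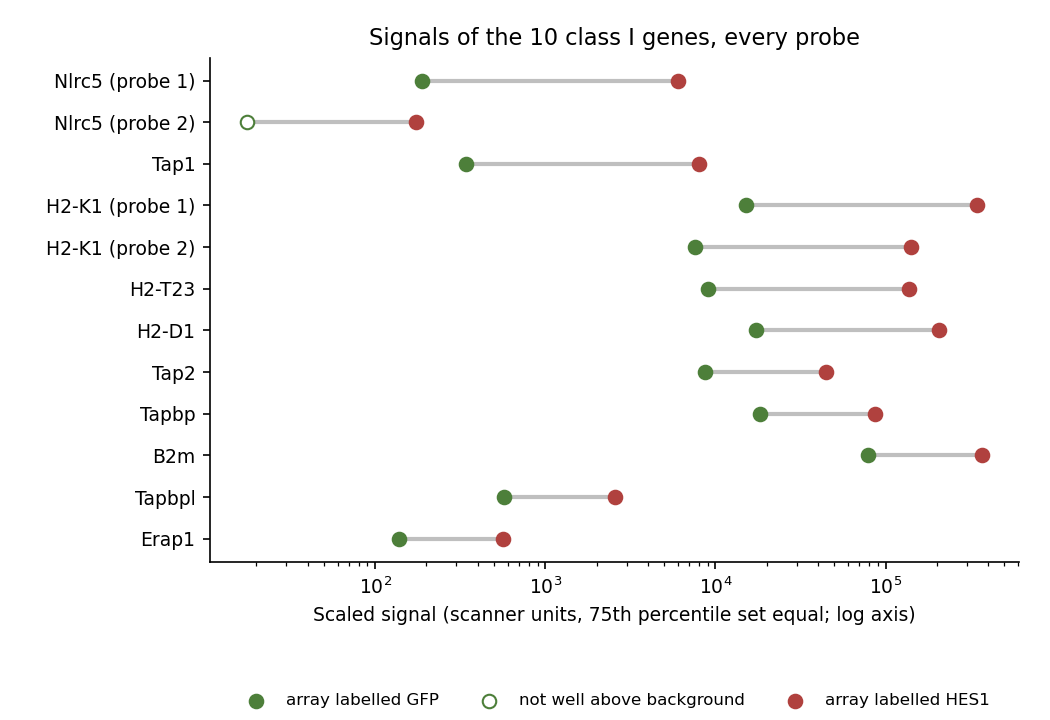
Scaled signals of the 12 probes of the 10 genes on the array labelled GFP (green) and the array labelled HES1 (red), on a log axis. Every red point lies to the right of its green point; the open point is the second Nlrc5 probe, which was not well above background on the GFP array.

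Whether the line labelled HES1 carried more Hes1 transcript could not be read from these arrays. On both arrays the Hes1 probe lay below the level called well above background. A transgene without the sequence of that probe would not be seen, so the probe checks neither label, and the samples are named by their labels. Of 13 chondrocyte markers, 9 were above background on at least 1 array. Col2a1, the main cartilage collagen, had signals of 13796 (GFP) and 7379 (HES1), and Sox9 had 3683 and 3227, while Matn1, Matn3, Hapln1 and Cnmd were below that level on both. The reference genes Actb and Gapdh differed by -0.27 and -0.11 on the log2 scale.

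All 3 heavy chain genes of the list were among the 5 genes that passed 8-fold. H2-K1 encodes a classical heavy chain that presents peptides to CD8 T cells. Its brighter probe gave 15201 for GFP and 344339 for HES1, which is 22.7-fold higher. Over the 8 kept spots of that probe the GFP array ran from 15011 to 15686, with a median of 15169, and the HES1 array from 317280 to 359077, with a median of 345424. The 2 sets of spots lay far apart, and the spot-by-spot log2 differences ran from 4.38 to 4.56. The second H2-K1 probe went from 7589 to 140744, or 18.5-fold. H2-D1, the other classical heavy chain gene on the list, went from 17364 to 206392, 11.9-fold higher. H2-T23 encodes Qa-1, a nonclassical heavy chain that natural killer cell receptors read, and it went from 8985 to 138184, 15.4-fold higher. Class I heavy chains are close in sequence to one another. Probe sequences were not used here, so how far a probe reads its neighbours in the family was not tested.

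B2m encodes beta-2 microglobulin, the light chain that all of these heavy chains need to leave the endoplasmic reticulum. Its 2 spots gave 77074 and 79793 for GFP and 357371 and 378704 for HES1. The difference was 4.69-fold, or 2.23 on the log2 scale, with 2.16 and 2.30 for the single spots. No spot was saturated on either array. On the HES1 array the raw median signal of B2m was 264704, and the brightest probe there reached 490025. The difference of H2-K1 exceeded that of B2m by 2.27 on the log2 scale. The combined technical error was 0.29, which leaves out differences between probes.

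The transporter subunits differed from each other. Tap1, a subunit of the heterodimer that pumps peptides into the endoplasmic reticulum, had 10 spots on each array. For GFP they ran from 320 to 358 with a median of 339, and for HES1 from 7695 to 8497 with a median of 7966. No spot came near the other set, and the mean difference was 23.6-fold, with an SD between spots of 0.08 on the log2 scale. Tap2 encodes the partner subunit, and its single spot went from 8705 to 44820, 5.15-fold higher. The log2 difference of Tap1 thus exceeded that of Tap2 by 2.19, with a combined technical error of 0.29. Each was read by 1 probe, and that error leaves out differences between probes.

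**Figure D3:**
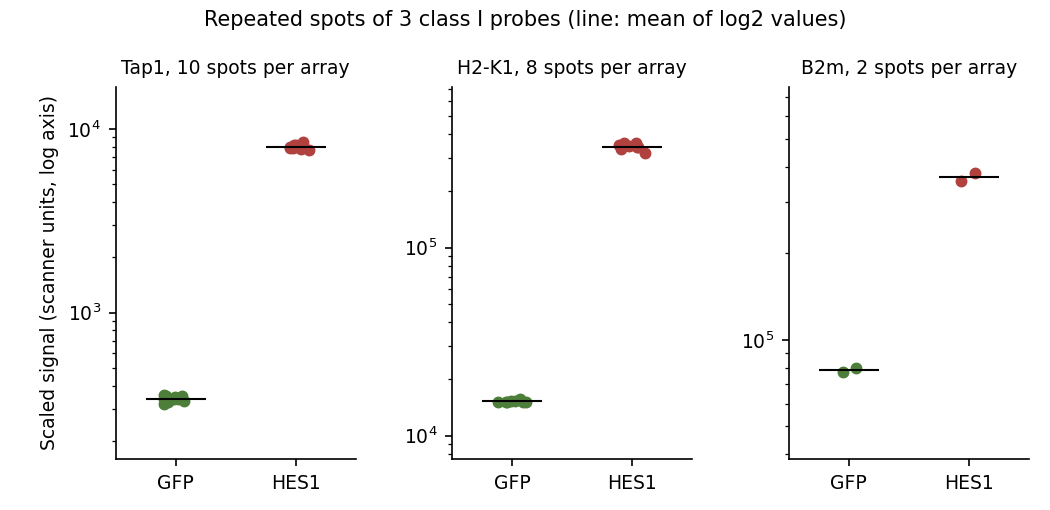
Signals of the repeated spots of the Tap1, H2-K1 (brighter probe) and B2m probes on each array, on log axes, with the mean of the log2 values as a line. Spots of one array lie close together compared with the gap between arrays; spots are technical repeats on 1 array and not samples.

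The tapasin genes and the trimming enzyme were, with Tap2 and B2m, the 5 genes that did not pass 8-fold. Tapbp encodes tapasin, the bridge between TAP and the heavy chain, and went from 18237 to 86869, 4.76-fold higher. Tapbpl encodes TAPBPR and went from 575 to 2581, 4.49-fold higher. Erap1, the aminopeptidase that trims peptides to their final length, went from 138 to 561, 4.06-fold higher. Under a normexp background correction with an added offset the log2 difference of Erap1 was 1.23 in place of 2.02.

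Nlrc5, the transactivator of class I genes, had the highest difference of the list by its brighter probe, a place it lost under normexp (4.10 on the log2 scale, against 4.63 for H2-K1). It also fell behind Tap1 and H2-K1 where the median over a gene's probes was taken, which counts the dim probe below. Its brighter probe went from 188 to 6029, 32.1-fold higher. The other probe gave 17.6 for GFP, not well above background, and 173 for HES1, which bounds that difference at 4.55-fold or more. The probes shared the direction.

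The 10 genes fell in an order from Nlrc5 (32.1-fold) through Tap1 (23.6-fold), H2-K1 (22.7-fold), H2-T23 (15.4-fold), H2-D1 (11.9-fold), Tap2 (5.15-fold), Tapbp (4.76-fold), B2m (4.69-fold) and Tapbpl (4.49-fold) to Erap1 (4.06-fold). The scanner software's error for these differences was 0.20 to 0.23 on the log2 scale. Of the 9 pairs of neighbours in that order, 1 differed by more than 2 times the combined technical error, H2-D1 and Tap2, which lay 1.21 apart on that scale. Of all 45 pairs, 30 differed by more than that. The genes from Tap2 to Erap1 thus could not be ordered among themselves, while each of the upper 5 lay above each of the lower 5. This error covers the reading of 1 array and leaves out differences between cultures. Among all 14273 genes the differences ranked from 124th for Nlrc5 to 778th for Erap1.

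**Figure D4:**
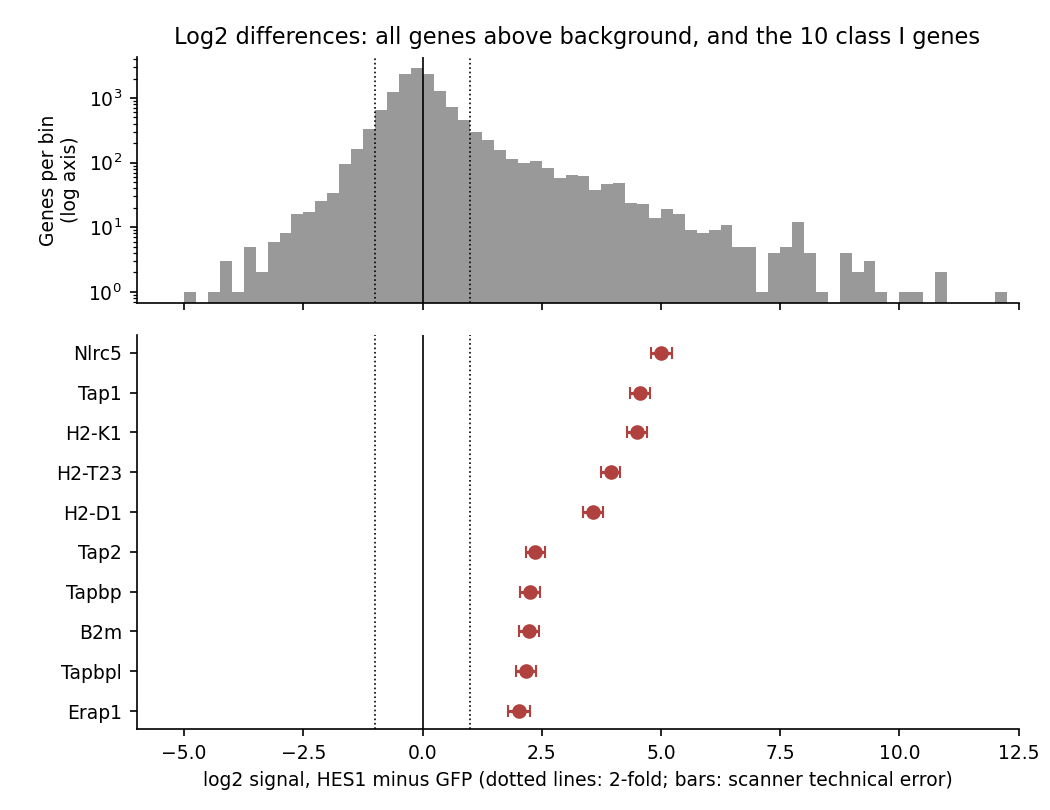
Log2 differences, HES1 minus GFP: the histogram shows all 14273 genes above background on at least 1 array (log count axis), and the points show the 10 genes with the scanner software's technical error as bars. All 10 lie past the dotted 2-fold line, in a group of 5 at 3.57 and above and a group of 5 from 2.02 to 2.36.

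Genes outside the list were described through lists of related genes, not all of which act in peptide loading. The lists also hold class I-like genes outside the H2 complex, and Ezh2, Eed and Suz12 for comparison. Leaving out class II genes, 74 genes were listed, 65 were on the array after spots flagged as outliers were removed, and 58 were above background on at least 1 array. On the HES1 array 22 of them were higher by 2-fold or more, 0 were lower and 36 lay within 2-fold. Their median log2 difference was 0.21. With genes seen on 1 array set at their bound, 19 were higher, against 9.49% of all genes counted that way. The lists were chosen with earlier results of these data known, so nothing is read from that share.

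The catalytic subunits of the immunoproteasome, which cut peptides suited to class I, were all higher. Psmb8 went from 125 to 12620 (101-fold), Psmb9 from 964 to 28153 (29.2-fold) and Psmb10 from 13478 to 218314 (16.2-fold). The genes of the proteasome activator PA28 were also higher, Psme1 by 5.29-fold and Psme2 by 3.10-fold. Thus all 5 genes of this list passed 2-fold, and their median log2 difference was 4.02.

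Other heavy chain genes of the H2 complex were higher with 1 exception. Of 23 listed, 16 were on the array and 11 above background on at least 1 array, of which 10 passed 2-fold in the higher direction (8 by bounds). H2-Q8 went from 662 to 12524 (18.9-fold), H2-Q6 from 5252 to 86428 (16.5-fold) and H2-Q10 from 605 to 9765 (16.1-fold). H2-Q2 was 15.8-fold higher, H2-Q7 15.2-fold, H2-T10 13.3-fold and H2-M11 6.74-fold. H2-T24 went from 102 to 581 (5.68-fold), and its other probe, seen on the HES1 array alone, was at least 22.4-fold higher. H2-M1 (at least 1.93-fold) and H2-M9 (at least 1.53-fold) were seen on the HES1 array alone. H2-Q4 was the exception, with 79075 for GFP and 77103 for HES1, a log2 difference of -0.04. What its probe reads was not tested. H2-M3, which presents formylated peptides, had an outlier flag on its spot and was left out. With that spot kept it went from 3140 to 18883 (6.01-fold).

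General chaperones and enzymes that serve the loading complex were within 2-fold at the 75th percentile scaling. Calr, the chaperone calreticulin of the loading complex, went from 31908 to 57256, a log2 difference of 0.84. Canx, the chaperone calnexin, gave -0.33, and Pdia3, the oxidoreductase bound to tapasin, gave -0.15. Hspa5, the lumenal chaperone BiP, had the highest difference of this list at 0.97. Of these 9 genes 0 passed 2-fold at this scaling, with a median of -0.08. Hspa5 passed it under quantile normalization (1.09), median centring (1.08), loess (1.17) and normexp (1.09), and Calr under loess (1.03). The 9 other antigen peptidases measured, cytosolic enzymes for the most part, were also all within 2-fold. They ran from Thop1 at -0.46 to Tpp2 at 0.19, with a median of -0.29. Lnpep, an endosomal relative of Erap1, gave 0.18, and Lap3, leucine aminopeptidase, gave -0.43.

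**Figure D5:**
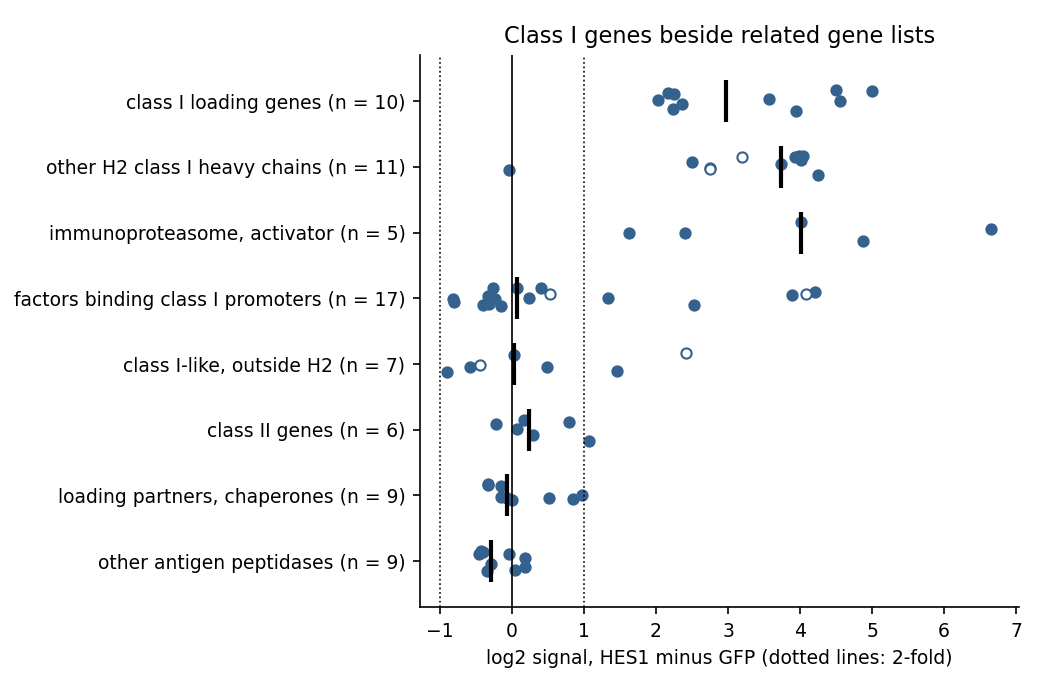
Log2 differences, HES1 minus GFP, of the class I loading genes and 7 related lists; each point is a gene by its brightest probe, open points were well above background on 1 array only, and the bar is the median. The loading genes, the other heavy chains and the immunoproteasome lie to the right of the 2-fold line apart from H2-Q4, while chaperones and other peptidases lie between the lines at this scaling (Hspa5 and Calr pass 2-fold under other scalings).

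Among factors known to act at class I promoters, the measured ones of the interferon pathway were higher and the others measured were within 2-fold. Irf8, also listed, was too dim on both arrays to be counted as measured (7.74 for GFP and 16.5 for HES1). Of 17 measured, 5 passed 2-fold in the higher direction and 0 in the other. The 17 include Ezh2, Eed and Suz12, which were listed for comparison and lay within 2-fold. Stat2, whose product acts with IRF9 at ISREs, went from 3065 to 56469 (18.4-fold), and Irf9 was 14.7-fold higher. Irf1 went from 7580 to 43746 (5.77-fold), and its second probe was below background level on both arrays. Irf2 was 2.51-fold higher. Of the factors of the X and Y boxes, Rfxank gave -0.81, Rfxap -0.41, Nfya -0.34, Nfyb -0.32 and Nfyc 0.07 on the log2 scale. Creb1, of the CREB family, gave 0.24 by its brighter probe and -0.46 by the other. Rfx5 was seen on 1 array by each of its probes, and they pointed opposite ways (61.5 on the HES1 array by one, 63.6 on the GFP array by the other). Nfkb1 and Rela, whose products bind kappaB sites, gave -0.26 and -0.24.

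Class II genes, whose products present peptides taken up from outside the cell, were measured for comparison. Of 6 measured, 1 passed 2-fold in the higher direction, against 11.1% of all genes, and nothing is read from that share. It was H2-Ab1, with 837 and 1755 (2.10-fold) by one probe and 801 and 1528 (1.91-fold) by the other. H2-Aa, H2-Eb2, H2-DMb2 and H2-Oa were not well above background on either array. Ciita, the class II counterpart of NLRC5, had signals of 81.5 and 69.7. Cd74, the class II invariant chain, had a spot with an outlier flag, and with that spot kept the signals were 766 and 832.

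Genes next to the 10 on the chromosome were compared by taking the 2 genes on either side in the RefSeq table of GRCm38.p6, used for order only. Of 37 distinct neighbours outside the list, 17 were measured, of which 8 passed 2-fold in the higher direction and 0 in the other, with a median log2 difference of 0.90. Leaving out neighbours that belong to the class I lists, 5 of 14 passed 2-fold and the median was 0.25, against 11.1% and -0.06 over all genes. The 5 still included H2-K2, the pseudogene described below, which stood in no list, so nothing is read from that share. Of the 5, Patl2, E130112N10Rik and Gm6034 were seen on the HES1 array alone, with bounds of 1.24-fold, 2.53-fold and 4.53-fold. Under normexp the log2 differences of these genes were 0.31, 0.47 and 0.98, each below 2-fold. Tap1, Psmb9, Psmb8 and Tap2 stand side by side on chromosome 17 and were all higher. H2-DMb1 and H2-Ob, the class II genes flanking that block, gave 0.07 and 0.30. Around Tapbp the neighbours Rgl2, Pfdn6 and Zbtb22 gave -0.19, -0.0009 and -0.83. Cast, next to Erap1 on chromosome 13, gave -0.01. Next to B2m on chromosome 2, Trim69 was 10.4-fold higher (163 and 1690) and Spg11 gave 0.19. H2-K2, a transcribed pseudogene beside H2-K1, gave 8735 and 149467 (17.1-fold), and it is a near copy whose signal may be shared with other heavy chains.

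Immune cells carry class I at a high level, so markers of such cells were looked at. Of 12 macrophage markers, 11 were on the array and 6 were above background on at least 1 array. Their summed signal was 50249 for GFP and 25466 for HES1, most of it from 1 Itgam probe (47669 and 22759), while the other Itgam probes gave 67.4 and 93.6, and 71.6 and 85.4. Fcgr1 (at least 2.04-fold higher) and Mrc1 (at least 1.37-fold higher) were seen on the HES1 array alone, and the median log2 difference of the 6 was 0.48. Ptprc, the pan-leukocyte marker CD45, was seen on the HES1 array alone, with 47.8, at least 1.25-fold higher. Tyrobp, Laptm5, Aif1, Adgre1 and Lyz2 were below that level on both arrays. Of 7 dendritic cell markers 3 were above background, with summed signals of 188575 and 160958, nearly all from 1 Siglech probe. Of 9 lymphocyte markers 4 were above background, with sums of 5578 and 5654. Most of both sums came from single probes of Cd4 (2835 and 2895) and Nkg7 (1696 and 1539). The other Cd4 and Nkg7 probes were not well above background on either array. Cd79a was seen on the HES1 array alone, at least 1.36-fold higher. Probes differ in brightness, so none of these sums measures the content of such cells. The part of such cells in the differences above was not tested.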

How the data were processed

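Total RNA of 2 ATDC5 lines was measured on 1 array each, of 1 Agilent mouse design annotated on mm9, on 1 slide, per the file headers. The authors deposited scanner files with an intensity per spot. The submitters' processing notes name Agilent Feature Extraction 10.10.1.1. That software corrected the processed intensity for background and detrended it, per the file headers, and left the arrays unscaled. The value table equalled it times 1.45 (GFP) or 1.53 (HES1), so its linear scale is known.

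Here log2 of the processed signal was set to a common 75th percentile over 59305 spots that are not controls (1057.2, that of the deposited table). Spots with an outlier flag on either array were left out (1053), and spots of a probe were averaged. On the GFP array 54.6% of spots were well above background, and 56.6% on the HES1 array. Probes were named by accession through RefSeq (48.9% matched). Each gene is given by the brightest of its probes above background on at least 1 array, and where 1 array alone showed it, a bound was taken against the higher of the dim signal and the lowest signal well above background (38.1 for GFP, 39.0 for HES1). Precision is limited by the number of arrays. The scanner software's error had a median of 0.20 for a log2 difference, and 8 spike-in controls differed by -0.08 to 0.10. No test was possible with 1 array per group. The members, gene lists and rules were chosen with earlier results of these data known. All members were named, with the extremes of each list, fixed pathway genes and neighbours; marker genes and genes named beyond these were chosen after their values were seen. Alternatives were run for scaling, background correction (normexp in limma 3.58.1), filters, probe choice and thresholds. The scripts were tested on simulated data and run in Python 3.11.15. The value of 1 gene in the list of promoter factors is not reported here.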

Additional observations from a re-analysis of the deposited data

How the results depend on the processing

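Over 11 settings, the main one included, scaling, background correction, filter, probe choice and outlier handling were varied. All 10 genes stayed at least 2-fold higher on the HES1 array in each setting. Their log2 differences ran from 1.23 (Erap1 under normexp) to 5.16 (Nlrc5 after loess). Not all of them stayed at 4-fold or more. Erap1 fell below it under quantile normalization (1.97) and normexp, and Tapbpl under normexp (1.94). Under normexp Tap1 gave 4.08, and H2-T23 passed 16-fold (4.04). Loess moved the median of all genes from -0.06 to 0.08. Of the values of single named genes under the alternatives, 661 moved by less than their technical error or not at all, and 35 by more. None of the called differences changed sign. Filters, probe choice, bounds and outlier handling leave most of these values unchanged by construction, so the 2 counts do not measure robustness. Most of the 35 moved under normexp. Some calls were lost, however. Under normexp H2-M1 (0.77), H2-M9 (0.51), Mill2 (0.21), Patl2 (0.31), E130112N10Rik (0.47), Gm6034 (0.98) and H2-Ab1 (0.95) fell below 2-fold. Hspa5 (1.09) passed it there. Counts over all genes moved more. Under normexp on median spot signals with quantile normalization 850 genes passed 2-fold upward and 339 downward, against 1582 and 707. With only probes well above background on both arrays 920 were higher. At 1.5-fold 2480 were higher and 2084 lower, and 3 genes of the related lists without class II were lower in place of 0. At 3-fold 997 were higher and 178 lower. An offset in normexp draws low signals together by construction, and the probes with the lowest signals on the GFP array, such as Erap1 and Nlrc5, are those for which background limits the difference. No paired analysis was possible because each group holds 1 array.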

Other observations

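Class I-like genes outside the H2 complex, whose products bind other ligands, did not share the size of difference of the heavy chains within it. Of 7 measured, 2 were at least 2-fold higher (1 by bounds) and 0 lower, with a median log2 difference of 0.03. Hfe, which takes part in iron sensing, went from 487 on the GFP array to 1338 on the HES1 array (2.75-fold higher). Mill2 was seen on the HES1 array alone, at least 1.22-fold higher. Fcgrt, the neonatal Fc receptor, gave -0.90, Cd1d1, which presents lipids, gave -0.58 by its brighter probe and -0.64 by the other, and Mr1, which presents vitamin B metabolites, gave 0.03. Fcgrt and Mr1 are among the genes of this list whose products also pair with beta-2 microglobulin. Of the genes for the core of Polycomb repressive complex 2, listed with the promoter factors, Ezh2 gave -0.81, Suz12 -0.15 and Eed 0.40.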
